A study of Mus musculus with 12 samples.

Results

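The mitochondrial ribosome is the particle that reads the few protein-coding messages of mitochondrial DNA, all of which specify core subunits of the respiratory chain and ATP synthase. Its proteins are encoded in the nucleus, translated by cytosolic ribosomes and imported, so that the mRNAs of its small subunit (symbols beginning Mrps) and large subunit (Mrpl) can be found on cytosolic ribosomes. In neurons these particles supply the respiratory chain that pays for synaptic activity. Here the 77 genes whose symbol begins Mrpl or Mrps followed by a digit are described in ribosome-bound RNA of CA1 pyramidal cells, the principal excitatory cells of a hippocampal field. They were taken from the 24079 genes of the count table by this name rule and by a minimum of 15 reads summed over the libraries, which 17823 genes passed. No match was lost to the minimum. The member with the fewest reads, Mrps24, had 3082 in all, and no member had under 193 reads in any library, so none lay near the limit.

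The question was how loss of FMRP, the RNA-binding protein absent in fragile X syndrome, alters the mRNAs carried by ribosomes of these cells. The comparison was between 12 libraries, 6 from wild-type (WT1 to WT6) and 6 from Fmr1-/y males (KO1 to KO6), aged 2 to 6 months on a C57BL/6J background, and each library was made from a pool of 4 to 6 mice. All animals carried Wfs1-CreERT2:RiboTag, in which a tamoxifen-inducible Cre under control of the Wfs1 gene switches on an HA-tagged Rpl22 of the cytosolic large ribosomal subunit, and all had received tamoxifen at 100 mg/kg on 3 days and were killed 1 week later. RNA was recovered from whole hippocampus with antibody to HA. A level below is the amount of an mRNA multiplied by the share of it on tagged cytosolic ribosomes, plus any RNA carried over from other cells. These parts cannot be told apart from each other, nor fewer tagged cells from less RNA per cell. The tag sits on cytosolic ribosomes, so the libraries hold the messages for mitochondrial ribosomal proteins and not the mitochondrial ribosomes themselves.

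Depth was 39400980 to 65565479 reads assigned to genes per library. Fmr1 had 1971 to 2608 reads in the wild-type libraries, 1 read in KO2 and 0 in the other Fmr1-/y libraries, as labelled. The 7 CA1 pyramidal markers examined were abundant in all libraries (summed level 8069 to 10380 CPM, reads scaled to a common library size with edgeR's TMM factors), and each had a lower mean in Fmr1-/y, 2 of them with an unadjusted edgeR p under 0.05. Markers of other cells were present too. The 6 astrocyte markers summed to 579 to 735 CPM in wild type and 656 to 1031 in Fmr1-/y, and the 3 choroid plexus markers to 6177 to 11579 and 8102 to 17023 CPM. All 6 astrocyte, all 3 choroid plexus and all 4 endothelial markers had higher means in Fmr1-/y, with 4, 2 and 2 of them at an unadjusted p under 0.05. All 3 dentate granule markers (median log2 fold change -0.38, 1 at an unadjusted p under 0.05) and 5 of 6 oligodendrocyte markers (median -0.16, 0 at that level) had lower means. After edgeR's adjustment none of these markers passed 0.05. In DESeq2 the astrocyte marker Slc7a10 did (adjusted p 0.039), with 25.2 to 29.9 CPM in wild type and 31.2 to 52.6 in Fmr1-/y, and every Fmr1-/y library above every wild-type library. The markers are given as measured, and their part in the results below was not tested except where a value is given.

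The members were placed in classes by subunit and, with the exceptions named below, by the origin of the protein. The large subunit accounts for 50 of the 77. Of these 30 belong to families shared with bacterial ribosomes and 20 were classed as specific to mitochondria. The 20 include Mrps18a and Mrps30, which carry small-subunit names but sit in the large subunit. The small subunit accounts for 26, with 16 of bacterial family and 10 classed as specific to mitochondria. Mrps18a and Mrps18b were put in the mitochondria-specific classes, although they descend from the same bacterial gene as Mrps18c. Mrps36 stands alone, because its product is now placed in the 2-oxoglutarate dehydrogenase complex of the citric acid cycle. The genes are spread over 17 chromosomes, with 10 on chromosome 11 and 8 on chromosome 17, and none lies on a sex chromosome.

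Many members start close to another gene. For 18 of 77 (23.4%) a protein-coding gene on the opposite strand began within 1000 bases and was transcribed away from the member, against 1390 of 16270 tested genes (8.54%). Partners included genes of the same process. Mrps12, of the decoding centre, faced the mitochondrial seryl-tRNA synthetase gene Sars2 at 172 bases, and Mrps27 faced Ptcd2, which encodes an RNA-binding protein of mitochondria, at 81 bases. Other members faced genes of cytosolic protein turnover and synthesis. Mrpl32 faced the proteasome subunit gene Psma2 at 75 bases, and Mrpl49 faced Fau, the source of a cytosolic ribosomal protein, at 59 bases. Because the counting used strand, divergent neighbours do not share reads.

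Promoter sequence (RefSeq, GRCm38.p6) was at hand for 68 members, in 74 windows that run from 250 bases before to 50 after an annotated start. Letters of known recognition sequences were searched in them on both strands. The NRF1 motif, GCGCA and GCGC parted by 1 base, was in 13 of 74 windows (17.6%) against 7.84% of the 17339 windows of tested genes, the YY1 motif AAGATGGC in 12 (16.2% against 3.56%) and the ETS motif CCGGAAG, bound by factors such as GABP, in 25 (33.8% against 13.9%). At least 1 of these 3 was in 42 windows (56.8% against 22.7%). The Sp1 motif GGGGCGGGG was in 15 (20.3% against 18.6%), TATAAA in 5 (6.76% against 8.50%) and the CREB motif TGACGTCA in 2 (2.70% against 2.64%). A match is a description of letters, and binding was not measured.

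Promoters of 4 members are shown, from 250 bases before the start to base 15 after it, 5′ to 3′ on the strand of the gene, with matches to the NRF1, YY1, ETS and Sp1 motifs or their reverse complements in capitals. Mrps6 at chr16:92058086-92058350 (plus strand) is shown because it differed most between genotypes, and it holds an Sp1 match and no NRF1, YY1 or ETS match. Mrps21 at chr3:95871500-95871764 (minus strand) had the highest level per kilobase and holds an NRF1 match, with an ETS match further downstream in its window, past the bases printed. Mrpl17 at chr7:105811073-105811337 (minus strand) had the third lowest level and holds an ETS and an NRF1 match. Mrps26 at chr2:130563507-130563771 (plus strand) holds ETS and overlapping NRF1 matches at its start.
Mrps6: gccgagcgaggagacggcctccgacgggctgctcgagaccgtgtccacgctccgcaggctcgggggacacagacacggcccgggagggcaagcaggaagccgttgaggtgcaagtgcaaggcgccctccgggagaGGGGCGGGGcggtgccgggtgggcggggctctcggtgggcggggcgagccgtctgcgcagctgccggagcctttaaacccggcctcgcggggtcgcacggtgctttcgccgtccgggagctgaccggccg
Mrps21: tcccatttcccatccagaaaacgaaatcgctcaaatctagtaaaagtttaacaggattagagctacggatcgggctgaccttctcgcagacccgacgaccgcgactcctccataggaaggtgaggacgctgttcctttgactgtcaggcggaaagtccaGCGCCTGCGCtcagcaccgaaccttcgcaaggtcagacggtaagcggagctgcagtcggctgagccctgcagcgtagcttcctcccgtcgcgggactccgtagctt
Mrpl17: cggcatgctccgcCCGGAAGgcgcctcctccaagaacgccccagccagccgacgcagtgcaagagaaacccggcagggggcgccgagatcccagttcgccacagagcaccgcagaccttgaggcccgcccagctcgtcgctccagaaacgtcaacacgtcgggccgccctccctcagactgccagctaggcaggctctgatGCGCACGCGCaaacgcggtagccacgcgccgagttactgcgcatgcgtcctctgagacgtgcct
Mrps26: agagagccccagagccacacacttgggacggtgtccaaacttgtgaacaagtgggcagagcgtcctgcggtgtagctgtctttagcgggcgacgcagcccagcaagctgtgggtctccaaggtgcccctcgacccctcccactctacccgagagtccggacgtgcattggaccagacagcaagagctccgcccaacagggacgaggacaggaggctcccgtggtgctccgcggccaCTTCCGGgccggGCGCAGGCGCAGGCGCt

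Levels differed widely among members, although the assembled particle holds most of them in equal number. Levels are compared between genes as mean CPM of the 12 libraries divided by the length in kilobases of the longest annotated transcript. The median member stood at 15.2 CPM per kilobase. Highest were Mrps21 at 102, Mrps33 at 77.5, Mrpl20 at 76.98 and Mrpl41 at 66.6 CPM per kilobase, which encode small proteins of both subunits. Lowest were Mrps10 at 2.57, Mrps35 at 2.67, Mrpl17 at 3.41 and Mrps22 at 3.49 CPM per kilobase. The range was 39.7-fold. With coding length in place of transcript length it was 25.4-fold, the median became 48.6 and the rank orders of the 77 correlated at a Spearman's rho of 0.56. The same genes held the first 4 places by either length, but Mrpl17, with a longest transcript of 7300 bases, moved from rank 75 to rank 41. By transcripts paired with RefSeq, a length chosen after the data were seen, Mrpl17 kept 7300 bases and ranked 76. Its low place therefore rests on using transcript length in place of coding length. By the RefSeq-paired length Mrps10 moved from rank 77 to 62 and Mrps22 from 74 to 61, while Mrps35 went from 76 to 77.

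**Figure D1:**
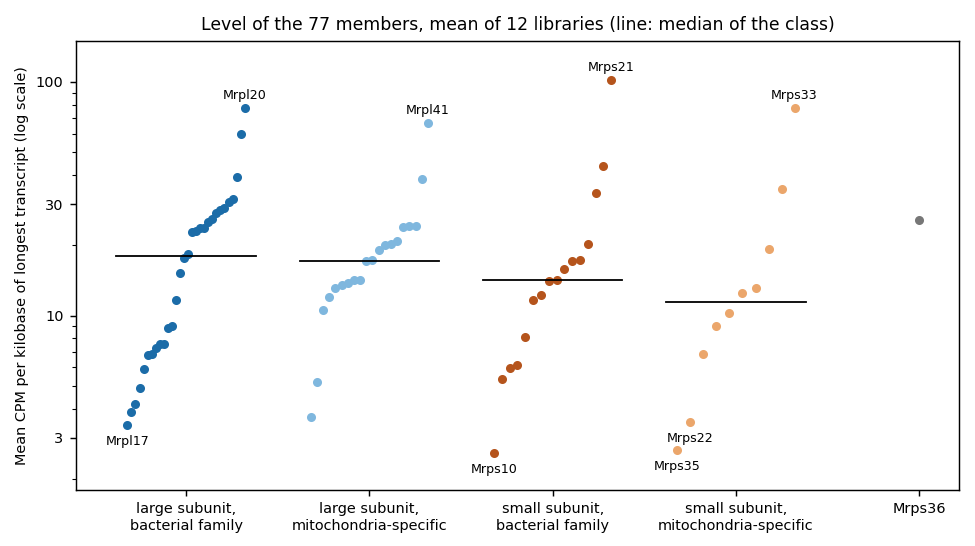
Mean level of each member in CPM per kilobase of longest transcript (log axis), 12 libraries, by class; each point is 1 gene and each line the class median. The medians run from 11.4 in the mitochondria-specific small subunit class to 18.0 in the large subunit class of bacterial family, while each class of 10 or more members spans over an order of magnitude.

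Large and small subunit classes overlapped throughout. The class medians were 18.0 CPM per kilobase for the large subunit proteins of bacterial family (range 3.41 to 76.98), 17.2 for those specific to mitochondria (3.70 to 66.6), 14.1 for small subunit proteins of bacterial family (2.57 to 102) and 11.4 for those specific to mitochondria (2.67 to 77.5). Mrps36 stood at 25.7. The 3 paralogs that descend from a single bacterial gene, and now occupy different places in the particle, were all present. Mrps18c had 43.8 CPM per kilobase, Mrps18b 19.3 and Mrps18a 17.1.

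Between genotypes the members differed little. The 6 libraries of each genotype were compared with the quasi-likelihood test of edgeR, in which 4 of 17823 genes had an adjusted p under 0.05 (0.0224%) and none of the 77 members did. At an unadjusted p under 0.05, 1 member was higher in Fmr1-/y, against 4.29% of all genes tested, and 0 were lower, against 3.67% (7.96% in either direction). limma voom also placed 0 members past an adjusted p of 0.05. DESeq2 placed 1 there, Mrps6, where it called 84 of the 14713 genes for which it gave an adjusted p (0.571%). The median log2 fold change of the members, Fmr1-/y over wild type, was 0.05 (0.0042 over all genes tested), and 58 of 77 (75.3%) lay above 0, against 51.4% of all genes. These 58 are not independent of each other, since members rose and fell together from library to library as described below.

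The precision of single members sets bounds on what could have been missed. The 95% interval of the log2 fold change held 0 for 76 of 77 members, and the bounds lay a median of 0.20 from the estimate. For 72 members the whole interval lay inside a 1.3-fold change in either direction. Leaving out Mrps6, the outermost bounds over all members were -0.32 (Mrps9) and 0.45 (Mrpl33). The estimates themselves were within a 1.2-fold change for every member but Mrps6.

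**Figure D2:**
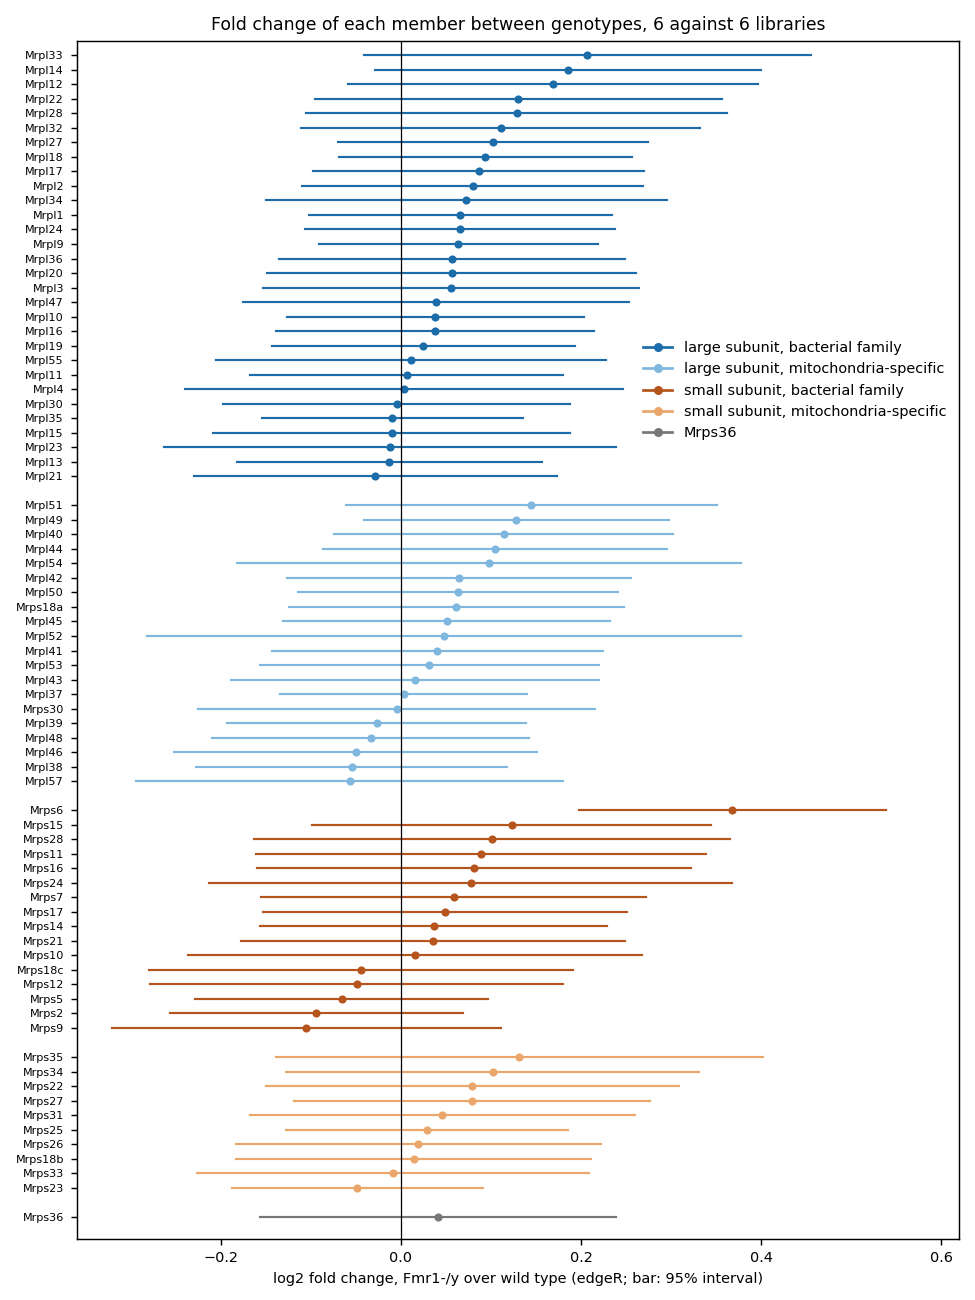
log2 fold change (Fmr1-/y over wild type, edgeR, 6 libraries each) of the 77 members by class; points are estimates and bars 95% intervals. Only the interval of Mrps6 (0.20 to 0.54) lies clear of 0, and the others centre between -0.10 and 0.21.

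By class, 24 of 30 large subunit members of bacterial family had an estimate above 0 (median log2 fold change 0.06), as did 14 of 20 specific to mitochondria (0.04). In the small subunit it was 11 of 16 of bacterial family (0.04) and 8 of 10 specific to mitochondria (0.04). Besides Mrps6, no member of any class had an unadjusted p under 0.05.

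Mrps6, which encodes the mitochondrial counterpart of bacterial protein S6 on the platform of the small subunit, stood apart. Its gene (Entrez 121022) lies on chromosome 16 from 92058336 to 92112227 of GRCm38, plus strand. It had 22.2, 19.7, 18.3, 20.3, 18.1 and 19.6 CPM in WT1 to WT6 and 29.9, 25.2, 24.3, 23.1, 26.1 and 24.0 CPM in KO1 to KO6. Each Fmr1-/y library was above each wild-type library, which held for 0.213% of all genes tested in that direction. The means were 19.7 ± 1.498 and 25.4 ± 2.42 CPM (SD, n = 6), a log2 fold change of 0.37 (SE 0.08). In edgeR the unadjusted p was 0.00027 and the adjusted p 0.181, so the difference did not pass the threshold after correction over all genes. DESeq2 gave the same log2 fold change of 0.37 with an adjusted p of 0.0082.

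The call thus depended on the tool, and DESeq2 is the one the authors used. The size of the difference was stable when single libraries were left out (log2 fold change 0.32 to 0.41, edgeR adjusted p 0.172 to 0.450). KO1 had the highest Mrps6 level and the highest summed astrocyte markers (1031 CPM). KO5 came next in Mrps6 with 707 CPM of these markers, below WT1 at 735, and then KO2 with 907. The summed endothelial markers were also highest in KO1, KO2 and KO5, from 42.7 CPM in KO1 to 46.6 CPM in KO5. The summed choroid plexus markers were highest in KO1 (17023 CPM), but among Fmr1-/y libraries they were lowest in KO2 (8102 CPM). Whether RNA of endothelial or choroid plexus cells adds to the Mrps6 level was not tested. With the astrocyte marker level of each library as a covariate the log2 fold change of Mrps6 was 0.23 (edgeR adjusted p 0.824, unadjusted p 0.016). The astrocyte markers were higher on average in Fmr1-/y, so this fit cannot tell them apart from genotype. With the level of short transcripts as the covariate the log2 fold change of Mrps6 was 0.34 (edgeR adjusted p 0.083). Both covariates were chosen after the data were seen, and the short-transcript level was also higher on average in Fmr1-/y. The Mrps6 start lies 14 bases from that of Slc5a3, a myo-inositol transporter gene on the same strand, and the annotated exons share 159 of the 1533 exonic bases of Mrps6. These exons are those of GENCODE M21, and their overlap in the UCSC annotation used for counting was not checked. Where exons of genes overlap in that annotation, the counting mode leaves ambiguous reads out. Slc5a3 had 53.6 ± 9.89 CPM in wild type and 56.0 ± 6.53 in Fmr1-/y (log2 fold change 0.06, SE 0.11, edgeR adjusted p 0.942).

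**Figure D3:**
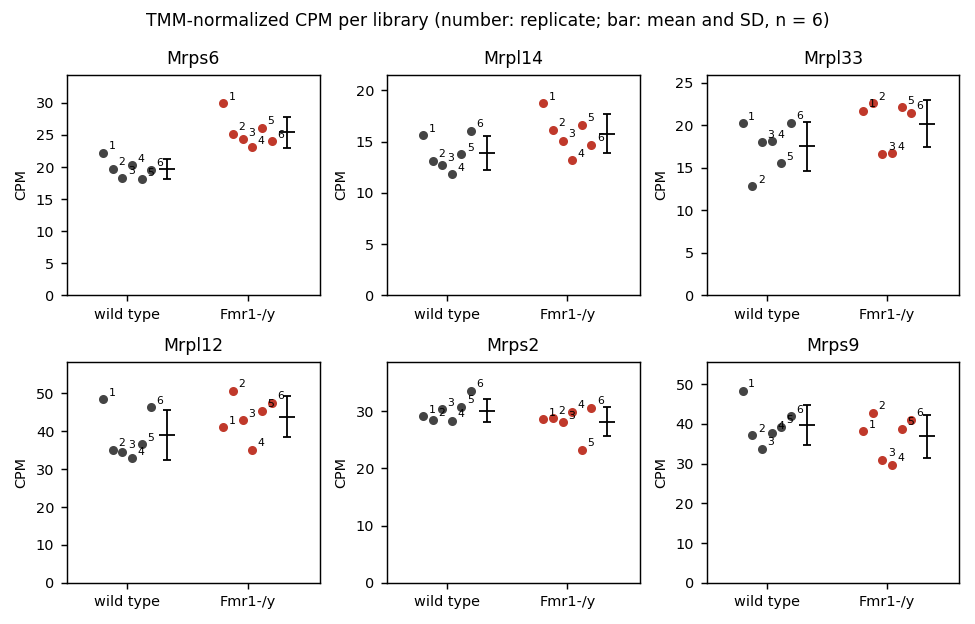
TMM-normalized CPM of 6 members in each library (points, numbered by replicate; wild type black, Fmr1-/y red) with mean and SD (n = 6). The genotypes separate for Mrps6 (18.1 to 22.2 against 23.1 to 29.9) and overlap for Mrpl14, Mrpl33, Mrpl12, Mrps2 and Mrps9.

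The members next in order of p on the higher side were large subunit proteins, and their genotypes overlapped. Mrpl14 had 15.6, 13.1, 12.7, 11.8, 13.8 and 16.1 CPM in WT1 to WT6 and 18.7, 16.2, 15.1, 13.2, 16.7 and 14.7 CPM in KO1 to KO6 (log2 fold change 0.19, SE 0.10, edgeR adjusted p 0.704). KO1 was highest and WT4 lowest, with the other libraries intermixed. Mrpl33 had 20.3, 12.8, 18.1, 18.1, 15.6 and 20.3 CPM in WT1 to WT6 and 21.7, 22.6, 16.6, 16.7, 22.1 and 21.5 CPM in KO1 to KO6 (0.21, SE 0.12). KO3 and KO4 lay within the wild-type range and the other Fmr1-/y libraries above it. Mrpl12, a protein of the flexible stalk that also binds the mitochondrial RNA polymerase, had 48.5, 35.1, 34.5, 32.9, 36.5 and 46.3 CPM in WT1 to WT6 and 41.0, 50.7, 43.0, 35.2, 45.3 and 47.6 CPM in KO1 to KO6 (0.17, SE 0.11). WT1 and WT6 reached the level of the Fmr1-/y libraries. Mrpl49, Mrpl51, Mrpl40 and Mrpl27 had log2 fold changes of 0.13, 0.14, 0.11 and 0.10, with adjusted p of 0.757 to 0.828 in edgeR's test.

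On the lower side the estimates were smaller still. Mrps2 had 29.1, 28.4, 30.3, 28.3, 30.7 and 33.6 CPM in WT1 to WT6 and 28.5, 28.8, 28.0, 29.9, 23.2 and 30.6 CPM in KO1 to KO6 (log2 fold change -0.09, SE 0.08, edgeR adjusted p 0.833). KO5 was the single low library. Mrps9 had 48.4, 37.2, 33.7, 37.8, 39.3 and 41.9 CPM in WT1 to WT6 and 38.2, 42.8, 31.0, 29.6, 38.8 and 41.1 CPM in KO1 to KO6 (-0.10, SE 0.10). WT1 was high and KO3 and KO4 were low. Mrps5 followed at -0.07, then Mrpl57 at -0.06, with Mrps23, Mrpl38, Mrpl46 and Mrps12 at -0.05, with adjusted p of 0.906 to 0.956 in edgeR's test. Mrps12 lies at the decoding centre, where its bacterial counterpart sets sensitivity to streptomycin. Mrps18a, Mrps18b and Mrps18c had log2 fold changes of 0.06, 0.01 and -0.04, and the relocated Mrps30 and Mrps36 of -0.0047 and 0.04.

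The larger variation lay between libraries of the same genotype, and the members shared it. Summed over the 77, the level was 2644, 2092, 2212, 2166, 2220 and 2573 CPM in WT1 to WT6 and 2477, 2615, 2217, 2075, 2468 and 2450 CPM in KO1 to KO6. The means were 2318 ± 231 and 2384 ± 199 CPM (SD, n = 6), so the genotypes differed by 66.03 CPM, less than either SD. Single libraries moved this difference, to 19.7 without KO2, 20.8 without WT2, 35.6 without WT4, 99.4 without KO3, 117 without WT6, 128 without KO4 and 131 CPM without WT1, and Fmr1-/y stayed higher each time. The high libraries came from both genotypes (WT1, KO2 and WT6), and so did the low ones (KO4, WT2 and WT4).

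The shift ran through nearly the whole set in the libraries at either end of the order. Each member was compared with its own mean log2 CPM over the 12 libraries. In WT1 and in KO2, 72 of 77 members lay above their mean, and in WT6 70 did. In WT2 1 member did, in KO4 5 and in WT4 6. The other libraries were more mixed, with 14 to 22 members above their mean in WT5, WT3 and KO3 and 59 to 62 in KO6, KO1 and KO5. The median deviation on the log2 scale was 0.18 in WT1, 0.17 in KO2 and 0.14 in WT6, and -0.16 in KO4, -0.15 in WT2 and -0.10 in WT4. Both subunits took part, with medians of 0.17 (large) and 0.23 (small) in WT1 and of -0.16 in KO4 for each.

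**Figure D4:**
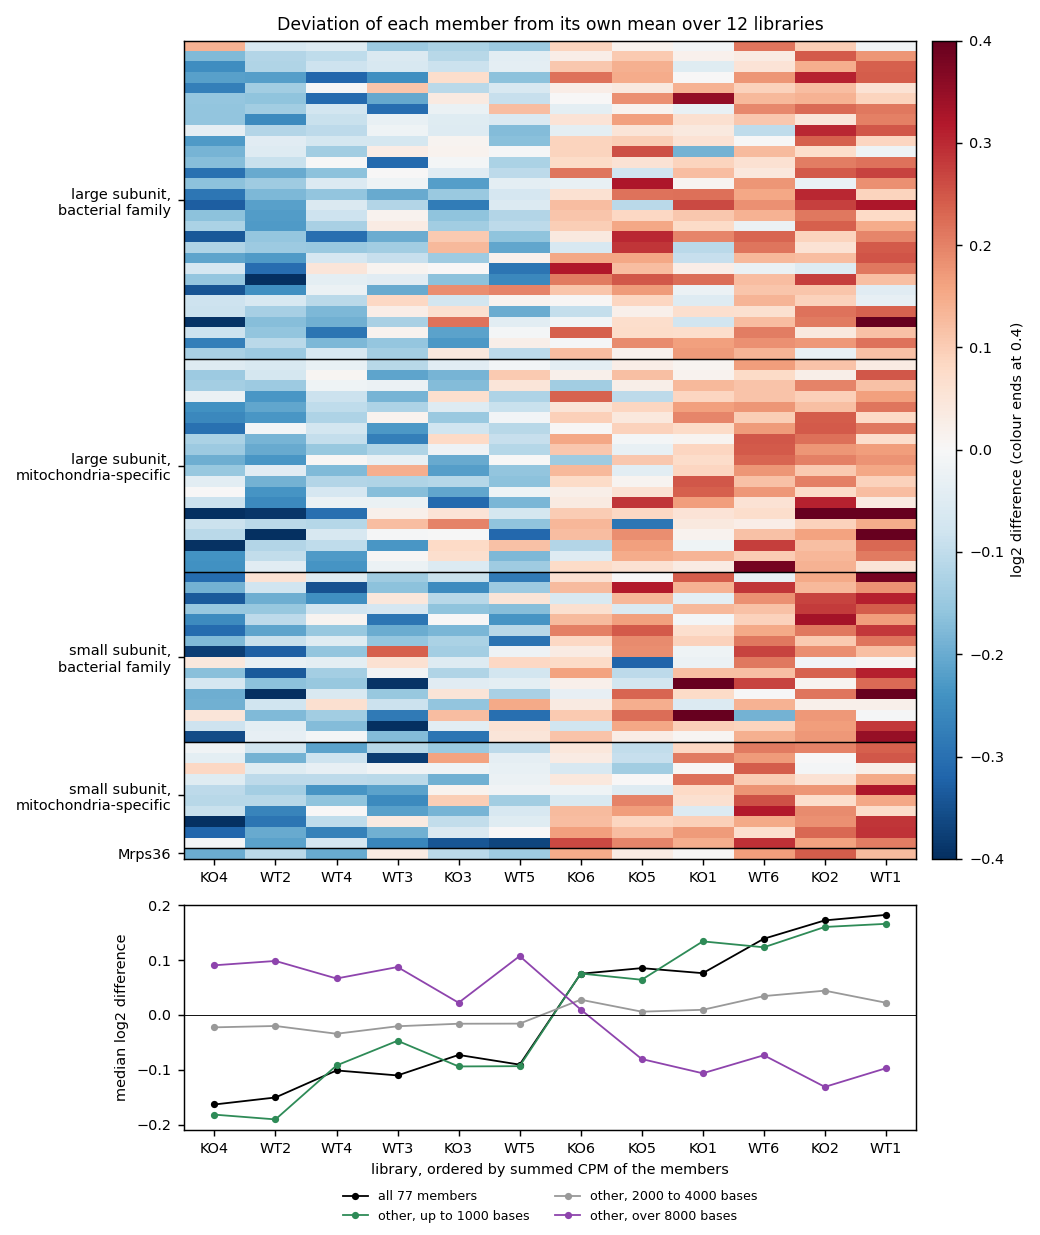
Top, deviation of each of the 77 members (rows, by class) from its own mean over the 12 libraries, in log2 CPM, with libraries ordered by the summed level of the members; bottom, median deviation of the members and of other genes by length of longest transcript. The median of the members is below 0 in the 6 libraries on the left and above 0 in the 6 on the right, each side holds both genotypes, and the median of transcripts over 8000 bases has the opposite sign in all libraries but KO6, where it is 0.0099.

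Members therefore varied together within each genotype. The median correlation of pairs of members over the libraries, after subtracting the genotype means, was 0.63, and 97.6% of the 2926 pairs were positive. The median was -0.0009 over all genes with a mean of at least 5 CPM, 0.53 over 326 other genes with a longest transcript of at most 1000 bases and 0.22 over 769 genes with one over 8000 bases. These points share 12 libraries, so they describe these libraries only. Mrpl41 and Mrps16 followed the median of the other members most closely (r of 0.96 each). Mrps2 hardly followed it (0.05), and Mrps23 (0.23) and Mrpl53 (0.27) did so weakly.

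The same order of libraries appeared outside the mitochondrial ribosome. In the 326 short transcripts the median deviation was 0.17 in WT1, 0.16 in KO2, -0.18 in KO4 and -0.19 in WT2. In 74 genes of the cytosolic ribosome it was 0.15, 0.15, -0.16 and -0.20, and in 79 nuclear genes of the respiratory chain 0.18, 0.17, -0.19 and -0.19. In transcripts over 8000 bases the sign was opposite in these 4 libraries, with -0.10, -0.13, 0.09 and 0.10. The 17 members of at most 1000 bases had medians of 0.22 in WT1 and -0.20 in KO4. The 25 members with a longest transcript of 2000 to 4000 bases had 0.17 and -0.15, and 4452 other genes of that length 0.02 and -0.02. With the short-transcript deviation as a covariate, chosen after the data were seen, the median log2 fold change of the 77 members between genotypes was 0.0011 in place of 0.05. With the astrocyte marker level as the covariate, also chosen afterwards, it was -0.0084, on the other side of 0. That marker level was higher on average in Fmr1-/y, so it cannot be told apart from genotype. The short-transcript deviation was also higher on average in Fmr1-/y, by less than its spread between libraries. That covariate is therefore not free of genotype either. In both fits 0 members passed the threshold. What set the libraries apart was not tested.

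The ratio of the subunits moved less between libraries than the total did. Members of both subunits shifted together, so their ratio is steadier than their sums, and other splits of the members were not compared. The summed small subunit level divided by the summed large subunit level was 0.497, 0.482, 0.473, 0.481, 0.487 and 0.491 in WT1 to WT6 and 0.484, 0.477, 0.468, 0.482, 0.471 and 0.480 in KO1 to KO6. The coefficient of variation of this ratio over the 12 libraries was 1.71%, against 8.85% for the summed level. The means were 0.485 ± 0.008 in wild type and 0.477 ± 0.006 in Fmr1-/y (SD, n = 6), a difference about as large as the SD, and the genotypes overlapped.

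**Figure D5:**
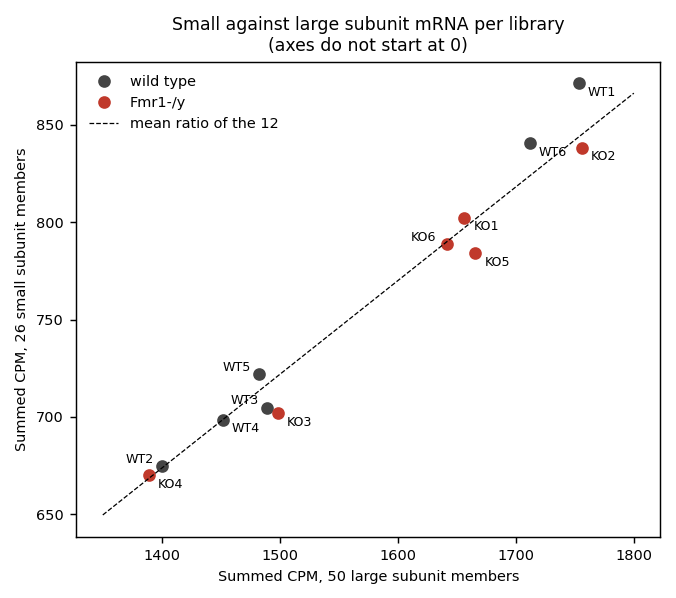
Summed CPM of 26 small subunit members against 50 large subunit members in each of the 12 libraries (wild type black, Fmr1-/y red); the dashed line is the mean ratio. The libraries lie along the line from KO4 and WT2 at the low end to WT1 and KO2 at the high end, with ratios of 0.468 to 0.497.

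Single members differed in how steady they were. Over the 12 libraries the coefficient of variation was lowest for Mrpl37, Mrpl35 and Mrps23, at 5.49%, 5.68% and 6.70%. It was highest for Mrpl52, Mrps35 and Mrpl33, at 20.6%, 16.4% and 16.1%. Mrpl52 ran from 6.98 CPM in KO4 to 14.4 in WT1, the libraries at the ends of the common order.

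Genes that work with the mitochondrial ribosome under other names gave the same picture between genotypes. Of 70 such genes tested, 0 passed an adjusted p of 0.05 in edgeR's test or in DESeq2. Unadjusted p under 0.05 was reached by 2 higher and 1 lower gene, where 4.29% and 3.67% of all genes tested did so in each direction. The 6 further ribosomal subunits, Dap3, Ptcd3, Chchd1, Aurkaip1, Gadd45gip1 and Ict1, had log2 fold changes of -0.12 (Chchd1) to 0.08 (Ict1), with a median of 0.01. Their summed level, 226 to 284 CPM in wild type and 218 to 276 in Fmr1-/y, was highest in WT1 and lowest in KO4, like that of the members. Mitochondrially encoded genes, which the particle translates, were not analysed here, because 0 of the symbols searched for were found in the count table.

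Among 25 tested factors for ribosome assembly and rRNA processing, Mettl17, needed for small subunit assembly, was the only one with an unadjusted p under 0.05. It had 8.63, 8.17, 8.95, 6.87, 7.25 and 9.57 CPM in WT1 to WT6 and 11.2, 11.4, 10.7, 7.36, 16.2 and 10.01 CPM in KO1 to KO6 (log2 fold change 0.44, SE 0.15, edgeR adjusted p 0.424). KO4 lay within the wild-type range and KO5 was far above the rest. The 11 initiation, elongation, release and recycling factors (median log2 fold change 0.05) and the 11 transcription and mRNA factors (0.02) held no gene with an unadjusted p under 0.05. Their extremes by p were Guf1 (0.15) and Mtrf1 (-0.07) in the first list and Taco1 (0.13) and Mterfd3 (-0.05) in the second.

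Of 17 mitochondrial aminoacyl-tRNA synthetases, which charge the tRNAs used by the particle, Wars2 was lower at an unadjusted p of 0.032 in edgeR's test (log2 fold change -0.34, SE 0.15, adjusted p 0.572). Lars2, named after its values were seen, dominated the list and varied most, with 3944 to 8276 CPM in wild type and 729 in KO1 to 8915 in KO6. Its log2 fold change of -0.57 had an SE of 0.39 (edgeR adjusted p 0.791). Its wild-type mean was 6016 CPM, against 272 for the other synthetases summed. Whether all reads counted to it came from Lars2 mRNA was not tested. Without Lars2 the synthetases summed to 254 to 289 CPM in wild type and 271 to 295 in Fmr1-/y.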

How the data were processed

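Ribosome-bound RNA of 6 wild-type and 6 Fmr1-/y pools was sequenced from stranded libraries. The authors aligned reads with TopHat2 2.1.1 and Bowtie2 2.2.8 to mm10, used HTSeq 0.6.1p1 (union mode, stranded) with the UCSC gene annotation, and deposited raw counts of reads per gene. Lanes held 4 libraries each and are not named in the sources used here.

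Genes reaching 15 reads in the sum of all 12 libraries were tested with edgeR 4.0.16 in R 4.3.3 (TMM, quasi-likelihood, Benjamini-Hochberg over all genes, threshold 0.05). The SE is the log2 fold change divided by the square root of F. Alternatives were DESeq2 1.42.0, limma 3.58.1 voom, other scalings and filters, a replicate block and each library left out. The authors' own test was an earlier version of DESeq2 at the same threshold. Deviations use log2 CPM with a prior count of 2. Lengths and coordinates came from GENCODE M21 (GRCm38, the build of mm10). Only the edgeR, DESeq2 and voom fits without covariates were run on simulated counts with known changes. Those counts held no shift shared between genes.

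The members and lists were chosen with earlier results of these data known. Named were members past the threshold, the 8 lower and 8 higher of smallest p, the extremes of level (4 each way) and variation (3 each way), the Mrps18 paralogs, Mrps30, Mrps36 and, in other lists, the extremes by p. Members named for their correlation, neighbouring gene or promoter letters were chosen after their values were seen. The sources do not say how mice were assigned to pools, so p-values measure the spread between pools. Mrpl23, Mrpl48 and Mrps36 have named pseudogene copies, and Mrps34 and Mrps24 share exonic bases with Nme3 and Urgcp on the same strand, so their counts are less certain. The values of 1 gene of the other lists are not reported here.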

Additional observations from a re-analysis of the deposited data

Results flagged for a closer look

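In 4 cases 1 library lay far from the other libraries of their genotype, with a gap to the nearest library that took more of the group's whole range than Dixon's 95% critical value for 6 samples. With 72 groups examined, about 3.6 would pass by chance, since chance passes about 1 in 20. Mrpl17 had 29.5 CPM in WT1 against 21.97 to 24.5 in the other wild-type libraries (gap 0.664 of the range), and 30.5 CPM in KO2 against 23.9 to 25.7 in the other Fmr1-/y libraries (0.729). WT1 and KO2 are also the libraries with the highest summed level of the members. Mrps23 had 57.7 CPM in WT6 against 47.2 to 49.6 (0.773). Mrps2 had 23.2 CPM in KO5 against 28.0 to 30.6 (0.65), and these last members are among those that followed the others least.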

How the results depend on the processing

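No member passed an adjusted p of 0.05 under any alternative but DESeq2, which called 1 (Mrps6). Over all alternatives but the covariates the adjusted p of Mrps6 ran from 0.0082 to 0.450. Members lower at an unadjusted p under 0.05 numbered 1 with the short-transcript covariate (Mrps9, log2 fold change -0.17) and 0 otherwise. Members higher numbered 2 without scaling factors (Mrpl14 added at 0.21) and 1 to 4 with a library left out. Without KO4 there were 4 (Mrpl12, Mrpl14 and Mrpl33 added), without KO3 3 (Mrpl33 and Mrpl51), without WT1 2 (Mrpl12) and without WT6 2 (Mrpl14). The median log2 fold change was 0.02 to 0.09 with a library left out and 0.07 without scaling, where that of all genes was 0.03. It was 0.0011 with the short-transcript covariate and -0.0084 with the astrocyte covariate. The difference of summed CPM was 19.7 to 131 with a library left out. The median level per kilobase was 48.6 by coding length and 20.8 by transcripts paired with RefSeq, the latter chosen after the data were seen.

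With the replicate number as a block, 0 members passed the threshold, and Mrps6 had a log2 fold change of 0.37 (edgeR adjusted p 0.139). Same-numbered libraries correlated at -0.08 to 0.09 over all genes, at -0.24 to 0.35 over 12788 genes with a mean log2 CPM of at least 1, and at -0.44 to 0.60 over 5987 genes with one of at least 5. Over the last, number 1 matched its own number best and the others did not. As not every pair was over 0.1 in any of these sets, the numbers were not taken as pairs.

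Of 32 named members, 12 changed sign in some setting, with no value past the threshold on either side. Without scaling these were Mrpl35 (0.0139), Mrps30 (0.0204) and Mrps33 (0.0145), and Mrps30 also with voom (0.006) and the block (0.0034). With a library left out the ranges were -0.0316 to 0.017 for Mrpl35, -0.0199 to 0.0388 for Mrpl37, -0.0335 to 0.177 for Mrpl52, -0.107 to 0.0081 for Mrpl57, -0.0358 to 0.106 for Mrps10, -0.113 to 0.0128 for Mrps12, -0.0256 to 0.0679 for Mrps18b, -0.107 to 0.0189 for Mrps18c, -0.0217 to 0.109 for Mrps21, -0.0491 to 0.0821 for Mrps30, -0.0627 to 0.0635 for Mrps33 and -0.0061 to 0.0822 for Mrps36. The cause was not tested.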
